A study of Mus musculus with 25 samples.

Results

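The comparison described here asks whether the colon responded differently to 7 days of injury in mice labelled wild type (WT) and mice labelled Card9-/-. For each gene the change from day 0 to day 7 in Card9-/- colon was set against the change over the same days in WT colon, and the WT change was subtracted from the Card9-/- change. A positive difference in change therefore means a larger rise, or a smaller fall, in Card9-/-. It used 15 of the 25 arrays of the series, and 23403 of the 34836 gene names on the array passed the filter on dim probes (a probe well above background in 3 or more of these 15) and were tested.

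All mice were females of the C57Bl/6j strain aged 8 weeks, and the Card9-/- mice were on the same background. They were bred under specific-pathogen-free conditions. Colitis was induced with dextran sulfate sodium (DSS), a polymer that damages the colon epithelium, given at 2% w/v in drinking water. Whole colon was taken before DSS (WT day 0, 3 arrays; Card9-/- day 0, 3 arrays) and after 7 days of DSS (WT day 7, 5 arrays; Card9-/- day 7, 4 arrays), and each array held RNA of 1 colon sample. Of the 5 Card9-/- mice that the design text names at day 7, 1 is not analysed here. The question stated in the title is the role of CARD9 in colitis, by way of tryptophan products of the microbiota and their receptor AhR (aryl hydrocarbon receptor). Nothing in the labels says how the Card9 allele was made, whether WT and Card9-/- mice shared litters or cages, or which stretch of the colon was taken.

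CARD9 is an adaptor protein of myeloid cells. It joins C-type lectin receptors, which sense fungal cell walls through the kinase Syk, to BCL10 and MALT1 and from there to NF-kB and cytokine genes. In the gut it is known for shaping the microbiota and for supporting IL-22, a cytokine that drives epithelial defence and repair, and bacterial products of tryptophan act on AhR to raise IL-22. DSS strips the epithelium from the crypts, after which neutrophils and monocytes enter and the stroma is remodelled.

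Genotypes are those of the labels throughout. The only Card9 probe, at chromosome 2, positions 26208462 to 26208521 of mm9, gave more signal on Card9-/- arrays, by 4.86 ± 0.41 (SE) on the log2 scale at day 0 and by 4.85 ± 0.33 at day 7. That is opposite in sign to a loss of the transcript, and the extent of the deletion is not stated in the labels, so the probe does not check the labels. An exchange of the genotype labels was not tested, and it would turn the sign of every difference between genotypes given here. No WT day 0 array and only 1 of the 5 WT day 7 arrays had it well above background, so the size of the difference is uncertain. Card9 was the 1 gene called between genotypes at each of these days, at an adjusted p of 0.000619 and 5.97e-05 in the limma fit (0.00427% of genes tested at each day). These counts varied widely with the fit, to 1509 genes at day 0 with array weights, and to 140 with all 25 arrays or 771 without WT day 7 replicate 3 at day 7.

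Some arrays stood apart from their group. Replicates 1 and 2 of Card9-/- day 0 and replicate 1 of WT day 7 were high for proximal Hox genes, which mark position along the gut. The 13 measured members averaged 2.07, 1.82 and 1.75 above the WT day 0 mean on those 3 arrays, against -0.66 to 0.46 on the other 12. Replicates 2 and 3 of Card9-/- day 7 averaged 12.29 and 12.68 for 17 genes of pancreatic acinar cells, against -0.99 to 1.64 elsewhere. All 8 markers of colon epithelium, among them Cdx2, Muc2, Car1 and Krt20, were well above background on all 15 arrays. Results are given with and without these arrays where that matters. Without replicates 1 and 2, Card9-/- day 0 is left with replicate 3 alone, so every Card9-/- change in that setting rests on that baseline array. In RNA of whole tissue, fewer cells of a type and less RNA per cell cannot be told apart. The labels do not say whether animals were handled in separate experiments, so p-values measure only the spread between these samples.

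After 7 days of DSS, Card9-/- colon showed 1370 genes that rose (5.85%) and 2130 that fell (9.10%), against 219 (0.936%) and 248 (1.06%) in WT colon, at a limma adjusted p under 0.05. Averaged over both genotypes, 1696 genes rose (7.25%) and 2710 fell (11.6%). Both genotypes share an estimate of spread for each gene, and WT had more arrays at day 7. A gene called in only 1 genotype need not differ between them, so these counts do not show that the genotypes differ. When the difference in change was itself tested, 0 genes (0%) passed the adjusted threshold, and the smallest adjusted p was 0.542. At an unadjusted p under 0.05, 821 genes (3.51%) had a positive difference and 1211 (5.17%) a negative one, with a median over all genes of -0.10. Every gene described below is therefore a ranked value of a comparison in which no gene passed, and "at the unadjusted threshold" is used for a p under 0.05 without adjustment.

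The ranked differences were made up of both days. Among the 821 positive genes, 783 (95.4%) were lower in Card9-/- than in WT at day 0 and higher at day 7, or the reverse, and 337 (41.0%) differed more between genotypes at day 0 than at day 7. The median genotype difference was -0.64 at day 0 and 0.80 at day 7. Among the 1211 negative genes, 1147 (94.7%) had opposite signs at the 2 days, with medians of 0.26 and -0.38. Over all genes tested, 53.8% had opposite signs and 42.8% differed more at day 0. The selection on the difference in change favours opposite signs, so these shares describe the genes and test nothing. The Card9-/- change was the larger of the pair in 610 of the 821 positive genes (74.3%) and 1024 of the 1211 negative ones (84.6%). Over all genes tested it was the larger in 63.9%. In the Card9-/- response 478 of the positive and 662 of the negative genes were called, against 69 and 34 in the WT response. Over all 23403 genes these calls were 3500 and 467.

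**Figure D1:**
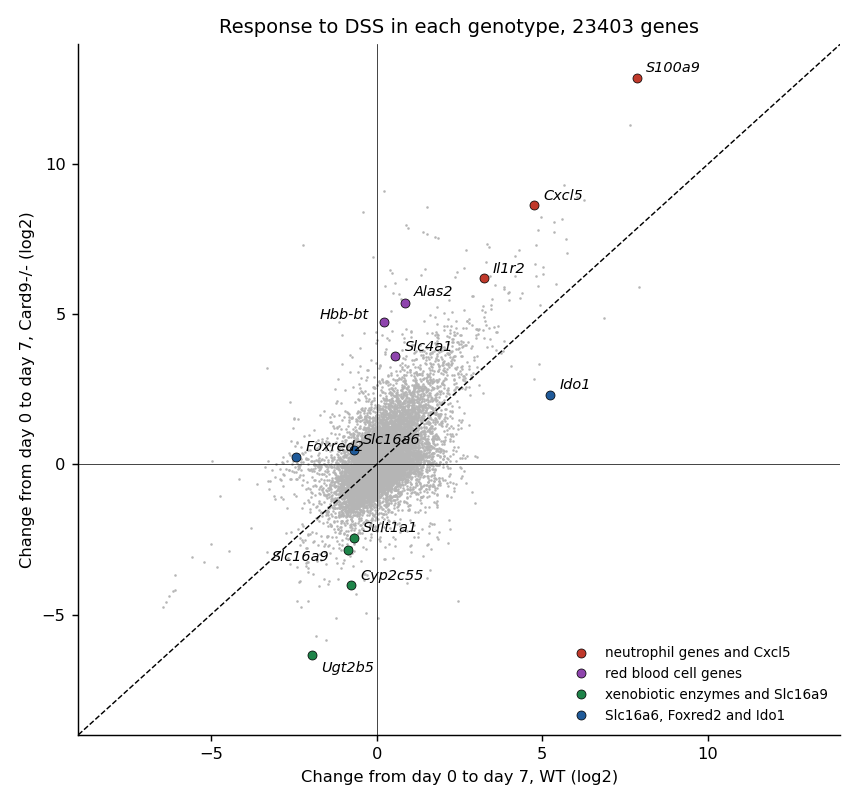
Change from day 0 to day 7 in WT (x axis) and in Card9-/- (y axis), both on the log2 scale, for the 23403 genes tested, with the dashed line at equal change. S100a9 lies at 7.87 and 12.88, Alas2 at 0.86 and 5.38, Ido1 at 5.24 and 2.32 and Ugt2b5 at -1.95 and -6.36.

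The gene with the smallest p was Slc16a6, which encodes a member of the monocarboxylate transporter family (probe at chromosome 11, positions 109314056 to 109314115 of mm9). Relative to the 75th percentile of each array, its log2 signal was 1.55, 1.75 and 1.55 on the WT day 0 arrays and 0.90, 0.84, 1.16, 0.92 and 0.88 on the WT day 7 arrays. In Card9-/- it was 0.96, 0.99 and 0.93 at day 0 and 1.71, 1.51, 1.44 and 1.13 at day 7. The day 0 and day 7 arrays did not overlap in either genotype, and the 2 genotypes moved in opposite directions. Slc16a6 fell by 0.68 ± 0.13 (SE) in WT (limma adjusted p = 0.0212) and rose by 0.49 ± 0.13 in Card9-/- (adjusted p = 0.0276). Its difference in change was 1.17 ± 0.18, with an adjusted p of 0.542 over all genes. Over 33 alternative settings it stayed between 1.05 and 1.27, with adjusted p from 0.0389 to 0.931, and it was 0.80 within the only slide that held an array of each group. The other Slc16a6 probe gave 1.45 ± 0.91.

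Foxred2, which encodes a flavoprotein of the endoplasmic reticulum, was second. Its log2 signal was -1.87, -1.83 and -2.04 in WT at day 0 and -4.41, -4.32, -4.03, -3.78 and -5.15 at day 7, so every WT array at day 7 lay below every WT array at day 0. In Card9-/- it was -3.57, -2.93 and -2.49 at day 0 and -3.15, -2.39, -2.44 and -3.00 at day 7, and these overlapped. Foxred2 fell in WT by 2.42 ± 0.31 (limma adjusted p = 0.00342), the Card9-/- change was 0.25 ± 0.32, and the difference in change was 2.68 ± 0.44. A second probe gave 2.31 ± 0.60. With normexp background correction the difference was 1.10, and in the deposited value table it was 1.33.

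Cd28, the co-stimulatory receptor of T cells, came next by p among positive genes. Its signal was -3.22, -3.27 and -2.67 in WT at day 0 and -4.36, -3.77, -3.55, -4.36 and -3.78 at day 7. In Card9-/- colon the values were -4.29, -4.39 and -3.47 before DSS and -2.56, -2.81, -3.13 and -2.94 after it. Cd28 rose in Card9-/- by 1.19 ± 0.27 (adjusted p = 0.0119 in limma), the WT change was -0.91 ± 0.26, and the difference was 2.10 ± 0.37 (1.52 without replicates 1 and 2 of Card9-/- day 0, 0.86 with normexp and 1.12 in the deposited value table). Cd6, a T cell surface receptor, differed by 2.46 ± 0.59 through its brighter probe, while a second probe gave -1.27 ± 0.78, so the 2 probes disagree. Cd300e, a myeloid activating receptor, differed by 1.30 ± 0.30, and by 0.58 with normexp.

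The remaining positive genes with small p were Gsdmcl-ps, Krba1, Mthfd1l, Gadd45g, Egln3, Hbb-bt and Gpr110. Egln3 encodes an oxygen-sensing prolyl hydroxylase that is itself induced when oxygen is low. Its signal was 0.97, 1.28 and 1.02 in WT at day 0 and 1.93, 1.36, 1.66, 2.00 and 1.66 at day 7, against 0.79, 0.86 and 0.88 and then 2.65, 2.26, 2.87 and 3.09 in Card9-/-. Every Card9-/- day 7 array lay above every WT day 7 array. The rise in Card9-/- was 1.87 ± 0.19, the WT change was 0.63 ± 0.19, and the difference was 1.24 ± 0.27, with 1.22 ± 0.24 from a second probe. Mthfd1l, a mitochondrial enzyme of folate metabolism, differed by 1.10 ± 0.23, and Gadd45g, a stress-response gene, by 1.82 ± 0.39. Neither of these 2 was called within a genotype.

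Among negative differences the smallest p belonged to Fam114a1. Its signal stayed between 2.44 and 2.96 on all 11 arrays of the WT groups and Card9-/- day 0, and was 1.96, 2.11, 2.03 and 2.05 on the Card9-/- day 7 arrays, below all others. The gene fell by 0.88 ± 0.11 in Card9-/- colon, and its difference in change was -0.76 ± 0.15. Dusp11, an RNA phosphatase, showed the other form of difference. It rose in WT by 0.80 ± 0.11, from -2.62, -2.46 and -2.41 to -1.98, -1.55, -1.68, -1.61 and -1.67. In Card9-/- it lay between -2.21 and -2.02 at day 0 and between -2.19 and -2.03 at day 7, and the difference was -0.80 ± 0.16 (-0.49 with normexp). Dnaja1, a co-chaperone of heat shock protein 70, likewise rose in WT, by 0.77 ± 0.13, against -0.07 ± 0.14 in Card9-/-. Atoh1, the transcription factor that commits crypt cells to the secretory lineage, was 3.54, 3.63 and 3.77 and then 3.55, 3.71, 2.89, 3.07 and 3.45 in WT, and 4.11, 3.98 and 4.09 and then 2.58, 2.59, 2.95 and 2.57 in Card9-/-. The groups of Card9-/- did not overlap, those of WT did, and the difference in change was -1.07 ± 0.26. Dnah7a and Gys2 also ranked here, but both were not well above background on any Card9-/- day 7 array, and their falls in Card9-/- are bounds of at least 2.71-fold and at least 2.03-fold.

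**Figure D2:**
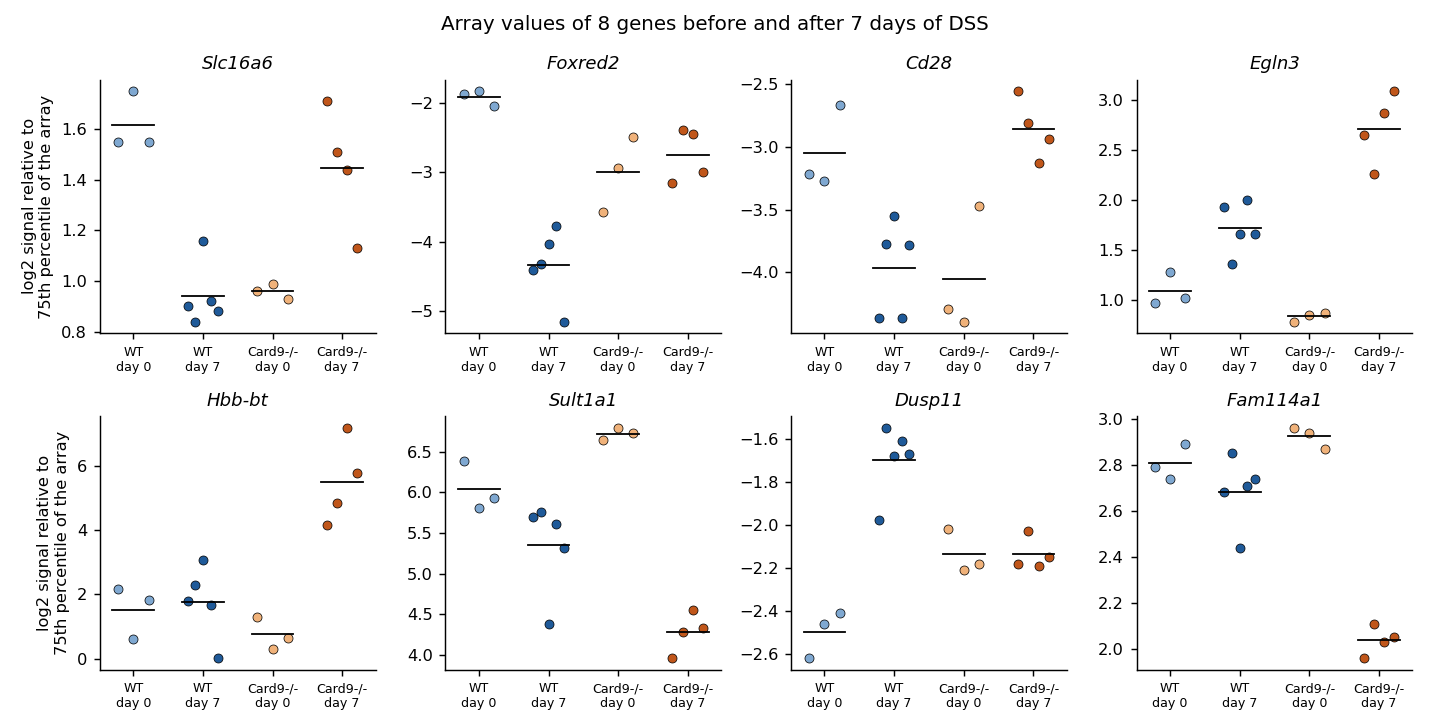
Log2 signal relative to the 75th percentile of the array (y axis) of 8 genes on each of the 15 arrays, by group (x axis), with the group mean as a bar. Slc16a6 and Foxred2 are lower at day 7 than at day 0 on all WT arrays, and Hbb-bt is higher on all 4 Card9-/- day 7 arrays than on any other array.

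Genes of red blood cells had the largest median difference in change of any list other than pancreatic acinar genes. Of 8 measured members, 7 were positive at the unadjusted threshold and none negative, beside 3.51% and 5.17% of all genes, and the list's median was 3.65 against -0.10 for all genes. In Card9-/- colon 7 of the 8 rose (beside 5.85% of all genes), and in WT 0 of 8 did (beside 0.936% of all genes). The members encode the globin chains, Alas2, the rate-limiting enzyme of haem synthesis in erythroid cells, Slc4a1, the anion exchanger of the red cell membrane, and Ahsp, the chaperone of free alpha globin.

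Alas2 was -3.01, -6.23 and -3.67 in WT at day 0 and -4.07, -2.65, -2.47, -3.65 and -4.35 at day 7. In Card9-/- it was -4.17, -5.98 and -5.17 and then -0.95, -0.54, 1.99 and 0.59. All 4 Card9-/- day 7 arrays lay above every other array, and replicate 3 was the highest. Alas2 rose by 5.38 ± 0.84 in Card9-/- (limma adjusted p = 0.00232), the WT change was 0.86 ± 0.81, and the difference was 4.51 ± 1.17 (2.48 with normexp).

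Hba-a2, an alpha globin gene, repeated this order. It was 5.34, 3.25 and 4.70 and then 4.79, 5.23, 5.85, 4.44 and 3.35 in WT, and 4.23, 3.34 and 3.82 and then 6.54, 7.45, 9.76 and 8.29 in Card9-/-. Hbb-bt, a beta globin gene, differed by 4.50 ± 1.03, and Slc4a1 and Ahsp, which are not globins, differed by 3.04 ± 0.88 and 2.42 ± 0.66. Probes of the near-identical alpha globin copies, and of the beta globin copies, cannot be told apart with certainty. The list's median was 3.73 without replicates 1 and 2 of Card9-/- day 0, 3.04 without replicates 2 and 3 of Card9-/- day 7, 3.08 with slide as a block and 4.24 within the slide that held all 4 groups. Leaving out 1 array at a time moved it between 3.05 and 4.13. Blood held in the tissue and red cell precursors both carry these RNAs, and their part in the result was not tested.

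The promoters of this group are shown because its members moved together. Of the 9 list genes and Hbb-bt, 4 had an entry in the RefSeq promoter table (GRCm38.p6). In the 250 bases before the start, all 4 held GATAA or its reverse complement TTATC, the core that GATA factors of the erythroid lineage bind, and 22.6% of 32851 promoters held it in the same window. Hba-a1 and Hba-a2 have near-identical windows, with the match 182 and 185 bases before the start, so they are not separate cases. The match is a description of these letters only. Capitals mark it in the sequences that follow, given 5′ to 3′ on the gene's strand, at chrX:150547167-150547416 (plus strand) for Alas2, chr11:32283422-32283671 (plus strand) for Hba-a1 and chr7:103813924-103814173 (minus strand) for Hbb-bt.
Alas2: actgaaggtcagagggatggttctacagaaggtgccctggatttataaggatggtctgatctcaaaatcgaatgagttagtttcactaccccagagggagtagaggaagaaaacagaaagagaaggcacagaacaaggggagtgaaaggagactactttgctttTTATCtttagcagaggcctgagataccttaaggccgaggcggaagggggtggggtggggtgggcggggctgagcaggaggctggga
Hba-a1: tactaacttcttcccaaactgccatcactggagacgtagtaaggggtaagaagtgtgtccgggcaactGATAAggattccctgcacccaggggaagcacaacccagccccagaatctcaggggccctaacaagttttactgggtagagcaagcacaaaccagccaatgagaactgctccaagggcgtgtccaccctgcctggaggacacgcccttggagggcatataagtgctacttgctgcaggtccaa
Hbb-bt: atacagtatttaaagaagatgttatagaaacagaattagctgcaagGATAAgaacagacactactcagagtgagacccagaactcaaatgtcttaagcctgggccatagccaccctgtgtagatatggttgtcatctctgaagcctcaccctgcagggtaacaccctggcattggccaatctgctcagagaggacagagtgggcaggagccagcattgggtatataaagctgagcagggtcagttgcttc

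Neutrophil genes also had a high median. Of 21 measured members 9 were positive at the unadjusted threshold and none negative, beside 3.51% and 5.17% of all genes. The median difference was 2.02. Within genotypes, 18 of 21 rose in Card9-/- and 9 of 21 in WT, with medians of 4.55 and 2.45, beside 5.85% and 0.936% of all genes. S100a9, a subunit of calprotectin and an abundant neutrophil protein, was -3.77, -5.12 and -4.80 in WT at day 0 and 0.61, 2.25, 6.01, 4.20 and 3.47 at day 7. In Card9-/- colon it was -6.02, -7.08 and -6.42, not well above background on any array, and then 5.83, 6.58, 6.36 and 6.71. The WT day 7 arrays spread widely, with replicate 3 as high as the Card9-/- arrays. S100a9 rose at least 2060-fold in Card9-/- and by 7.87 ± 0.88 in WT. Its difference in change was 5.01 ± 1.27, and 3.25 when dim values were raised to the lowest level well above background. The neutrophil median was 1.50 without replicates 1 and 2 of Card9-/- day 0, 2.47 without replicate 3 of WT day 7, and 2.60 within the slide of all 4 groups. Without replicate 3 of WT day 7, 16 of 21 members were positive at the unadjusted threshold, as were 1265 of all 23403 genes.

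Chemokines that draw neutrophils gave a median of 1.92 over 6 measured members, of which 1 was positive at the unadjusted threshold (beside 3.51% of all genes). That was Cxcl5, made mainly by epithelium and stroma. It was -4.59, -3.28 and -3.45 and then 0.35, -0.14, 3.24, 1.09 and 0.33 in WT, and -7.06, -6.69 and -5.26 and then 2.46, 2.34, 1.58 and 2.84 in Card9-/-. Cxcl5 rose at least 123-fold in Card9-/- and 26.9-fold in WT, with a difference of 3.89 ± 0.98 (2.27 with dim values raised, 1.59 with normexp). Among 21 measured inflammatory cytokines and chemokines 2 were positive (beside 3.51% of all genes), with a median of 1.20. That median was 0.52 without replicates 1 and 2 of Card9-/- day 0. It was 0.52 with the proximal Hox mean as a covariate and 0.79 with slide as a block. In Card9-/- 19 of the 21 rose (beside 5.85% of all genes) and in WT 9 (beside 0.936%), counts that are no test of a genotype difference. Il1b, a cytokine that the inflammasome activates, rose at least 273-fold in Card9-/-, where no day 0 array had it well above background, and 66.2-fold in WT. Its difference in change was 2.87 ± 1.35 and missed the unadjusted threshold, and it was 1.38 with the proximal Hox mean as a covariate.

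Macrophage genes had 12 positive members and 1 negative of 23 measured, with a median of 1.47, beside 3.51% and 5.17% of all genes and a median of -0.10. The same shares are the background of the list counts that follow. Cd68, a lysosomal protein of macrophages, was 0.89, -0.66 and -0.14 in WT at day 0 and 0.51, 0.17, 1.99, 0.80 and -0.20 at day 7. The Card9-/- values were -1.68, -1.39 and -1.04 and then 1.56, 1.54, 1.50 and 1.82. The Card9-/- groups did not overlap and the WT groups did, and the difference was 2.36 ± 0.62. The negative member was Tlr2, a receptor for bacterial lipoproteins, at -1.21 ± 0.49, or -0.48 without replicates 1 and 2 of Card9-/- day 0. Complement and acute phase genes had 9 positive members of 23 and a median of 1.16, led in p by C3ar1, the receptor of the C3a peptide, at 2.34 ± 0.67 (0.38 with normexp and 0.82 with dim values raised). Without replicates 1 and 2 of Card9-/- day 0 the macrophage and complement medians were 1.07 and 1.17. Fewer members of each list reached the unadjusted threshold there, as did fewer of all genes tested.

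Genes of antigen presentation and of B cells leaned on those same 2 arrays. MHC class II genes had 7 positive members of 10 and a median of 1.99, which was 0.60 once the 2 arrays were left out. H2-Aa, a class II alpha chain, was 1.67, 1.72 and 1.23 in WT at day 0 and -1.23, -0.70 and 1.29 in Card9-/- at day 0, so replicates 1 and 2 of Card9-/- lay below the other 4. At day 7 it was 0.87, 1.75, 2.87, 1.99 and 1.84 in WT and 2.16, 3.06, 2.39 and 2.59 in Card9-/-. B cell and plasma cell genes had 5 positive of 14 and a median of 2.68, or 0.89 without those arrays. WT day 0 replicate 2 was high for this list, at 1.39 against -1.19 and -0.20 on the other WT day 0 arrays. The B cell median was 1.98 without that WT array. The T cell list had 5 positive of 17 and a median of 0.76, which was -0.04 without the 2 Card9-/- arrays. The genes of the T cell receptor complex Cd3d, Cd3e and Cd3g differed by 0.41, 0.23 and 0.18, each within its SE.

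**Figure D3:**
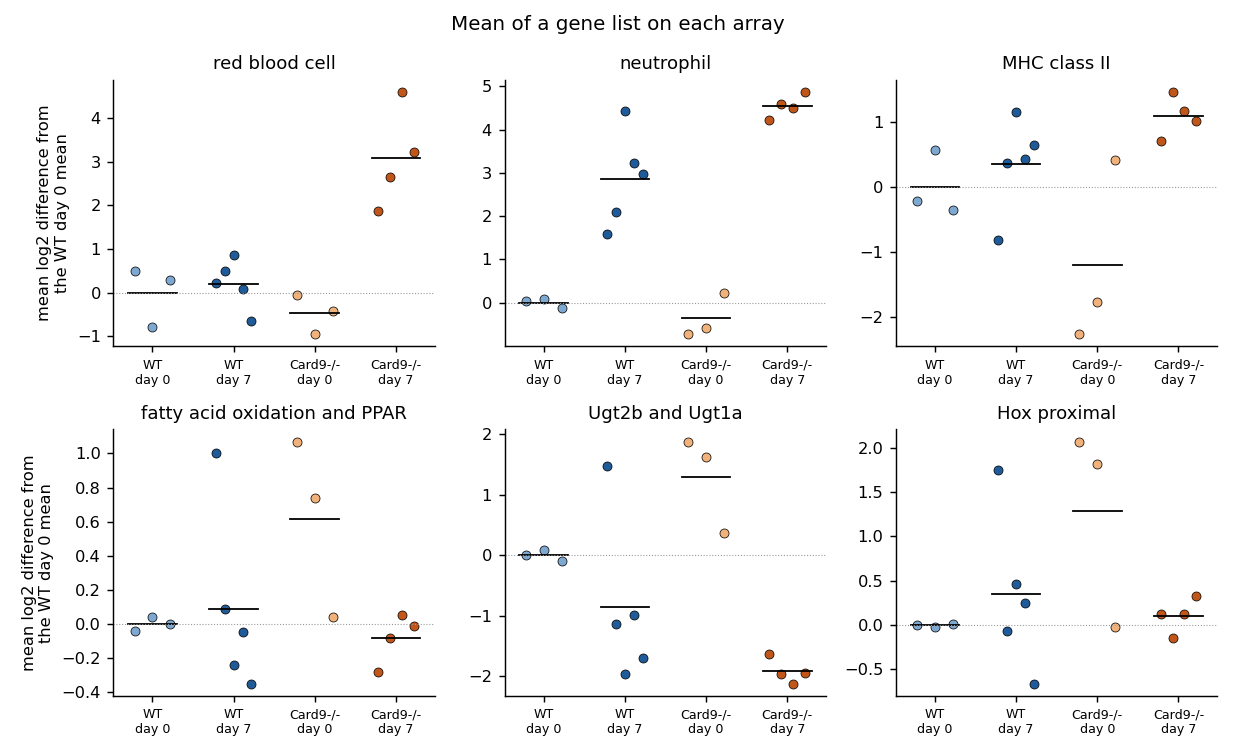
Mean log2 difference from the WT day 0 mean (y axis) of 6 gene lists on each of the 15 arrays, by group (x axis), with the group mean as a bar. Red blood cell genes average 1.88 to 4.61 on the Card9-/- day 7 arrays and -0.95 to 0.87 elsewhere, whereas proximal Hox, Ugt and fatty acid oxidation genes are high on 2 Card9-/- day 0 arrays and 1 WT day 7 array.

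Members of the pathway of CARD9 itself did not move alike. Of 18 measured members 6 were positive at the unadjusted threshold and none negative, and the median was -0.01. The positive members were the C-type lectin receptors Clec7a (Dectin-1, for fungal beta-glucan), Clec4n (Dectin-2) and Clec4d, their signalling chain Fcer1g, and the signalling proteins Vav1 and Plcg2. Clec7a was -2.95, -1.28 and -1.82 and then -0.68, -0.19, 1.94, 0.77 and -0.77 in WT, and -3.08, -2.66 and -2.23 and then 1.58, 1.82, 1.44 and 2.00 in Card9-/-. WT replicate 3 at day 7 lay in the range of the Card9-/- arrays and the other 4 below it. Clec7a rose in Card9-/- by 4.37 ± 0.58 (limma adjusted p = 0.00126), changed by 2.23 ± 0.55 in WT (adjusted p = 0.0587), and differed by 2.14 ± 0.80. The partners of CARD9 in its complex, Bcl10 and Malt1, differed by -0.32 ± 0.16 and -0.04 ± 0.17. Macrophage and neutrophil genes moved with the receptors on the same arrays, and their part in this result was not tested. Without replicates 1 and 2 of Card9-/- day 0 the list's median was 0.13, and Clec7a, Vav1 and Plcg2 differed by 1.71, 0.51 and 0.47. Fewer members reached the unadjusted threshold there, as did fewer of all genes tested.

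IL-22 and IL-17 genes gave a median of 0.05 over 13 measured members, with 1 at the unadjusted threshold. Il22 itself was -5.51, -6.47 and -5.45 in WT at day 0 and -5.65, -2.34, -0.95, -3.79 and -2.38 at day 7. Card9-/- arrays read -7.00, -4.95 and -4.82 and then -3.94, -2.03, -2.63 and -3.40. It was not well above background at day 0 in either genotype and was not called in either, and its difference of -0.20 ± 1.27 was within its error. Reg3b and Reg3g, antimicrobial lectins that IL-22 induces, rose in both genotypes, by 5.90 and 4.88 in Card9-/- and 7.92 and 6.85 in WT. Their differences were -2.02 ± 2.37 and -1.97 ± 1.93 and turned to 3.07 and 1.65 without replicates 1 and 2 of Card9-/- day 0. Stat3, which carries the IL-22 signal, and its feedback inhibitor Socs3 rose in both genotypes and differed by -0.18 ± 0.24 and 0.58 ± 0.72. The member at the unadjusted threshold was Ccr6, a chemokine receptor of lymphoid cells, at 3.66 ± 1.49, and it was 1.05 without the same 2 arrays.

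AhR targets showed no member at the unadjusted threshold among 8 measured, and a median of 0.14. The repressor Ahrr differed by 0.65 ± 0.57, Tiparp by 0.01 ± 0.30, Cyp1b1 by 0.68 ± 0.83 and the receptor Ahr itself by 0.26 ± 0.27. Cyp1a1 and Cyp1a2, the most used readouts of AhR, did not pass the filter for probes above background. Nqo1, a quinone reductase, fell in Card9-/- by 2.02 ± 0.47 and had a WT change of -0.81 ± 0.45. Of the genes ranked by p, 7 positive and 10 negative ones had a promoter entry, and 2 and 3 of them held the AhR core GCGTG or CACGC in the 250 bases before the start, beside 28.2% of all promoters.

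Host enzymes of tryptophan breakdown gave 2 positive and 1 negative member of 15 measured, with a median of 0.07. Ido1, the enzyme that opens the kynurenine pathway in inflamed gut, was -3.02, -6.17 and -3.07 in WT at day 0 and -0.22, 0.30, 2.69, 1.91 and 1.10 at day 7. Card9-/- values were -2.34, -1.40 and -0.97 and then 0.67, 2.18, -0.96 and 1.12. The day 7 groups overlapped, and the Card9-/- day 0 arrays lay above all WT day 0 arrays. Ido1 rose in WT by 5.24 ± 0.87 (limma adjusted p = 0.0136), the Card9-/- change was 2.32 ± 0.91 (adjusted p = 0.108), and the difference was -2.92 ± 1.26. It was -1.88 without WT day 0 replicate 2, the array at -6.17, -1.55 with normexp and -1.80 in the deposited value table. Kmo, the next oxidase of that pathway, differed the other way, by 1.82 ± 0.56 (0.75 with normexp), rising in Card9-/- by 2.42 ± 0.41. Il4i1, a phenylalanine and tryptophan oxidase of myeloid and B cells, rose by 1.98 ± 0.56 in Card9-/- and differed by 1.94 ± 0.77 (1.23 without replicates 1 and 2 of Card9-/- day 0). Both are also expressed by macrophages, whose genes rose on the same arrays, and the part of these cells was not tested.

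The monocarboxylate transporter list, to which Slc16a6 belongs, had 2 positive and 2 negative members of 15 and a median of -0.25. Slc16a3 (MCT4), which exports lactate from glycolytic cells, was 0.96, 1.00 and 1.42 and then 1.16, 1.19, 2.06, 2.18 and 0.78 in WT. Its Card9-/- values were 0.19, 0.80 and 0.96 and then 2.91, 2.13, 2.52 and 3.13, apart at the 2 days, and it rose there by 2.02 ± 0.35. The difference was 1.68 ± 0.49. Slc16a9, a carnitine transporter, was -0.02, 0.24 and 0.43 and then 0.44, -0.30, -1.25, -0.86 and -1.35 in WT, against 1.29, 1.36 and 0.73 and then -1.50, -2.12, -1.60 and -1.65 in Card9-/-. It fell by 2.85 ± 0.36 in Card9-/- and differed by -1.97 ± 0.50 (-1.22 with the proximal Hox mean as a covariate). Slc16a1 (MCT1), the main butyrate carrier of colonocytes, and its chaperone Bsg differed by -0.45 ± 0.56 and -0.15 ± 0.20.

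Antimicrobial defence genes had 11 positive members of 29 and none negative, with a median of 1.40 that was 1.30 without replicates 1 and 2 of Card9-/- day 0 and 0.88 with slide as a block. They moved in more than 1 way. Slpi, an antiprotease of mucosa, and the calprotectin genes rose in both genotypes and more in Card9-/- by value, though the Slpi difference of 1.87 ± 0.64 was 0.79 without those 2 arrays. Duox2, the hydrogen peroxide-forming oxidase of the epithelium, was -0.08, 0.30 and -0.05 and then -1.34, 0.71, 0.63, 0.59 and 0.57 in WT, and -0.27, -0.82 and -1.23 and then 0.87, 0.79, 0.89 and 1.40 in Card9-/-. All Card9-/- day 7 arrays lay above all WT arrays, the rise in Card9-/- was 1.76 ± 0.43, and the difference was 1.58 ± 0.59 (1.00 with slide as a block). The angiogenins Ang, Ang2 and Ang4, secreted by goblet and Paneth cells, fell in both genotypes and had positive differences, the fall by value being smaller in Card9-/-. Ang4 fell by 6.46 ± 0.49 in WT and by 4.73 ± 0.52 in Card9-/-, from 8.68, 8.20 and 7.99 against 7.80, 5.82 and 7.10 at day 0. Probes of the angiogenins, which are near-identical, cannot be told apart with certainty.

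Negative differences gathered in enzymes of detoxification and lipid use. Xenobiotic metabolism genes had 7 negative members of 33 and none positive, with a median of -0.58, and 17 of 33 fell in Card9-/- (beside 9.10% of all genes) against 2 in WT (beside 1.06%). Sult1a1, a phenol sulfotransferase, was 6.38, 5.81 and 5.93 and then 5.70, 5.76, 4.38, 5.61 and 5.32 in WT, and 6.64, 6.79 and 6.73 and then 3.96, 4.28, 4.55 and 4.33 in Card9-/-. WT replicate 3 at day 7 lay among the Card9-/- day 7 arrays, and the other 4 WT arrays above them. Sult1a1 fell by 2.44 ± 0.29 in Card9-/- (limma adjusted p = 0.000693), the WT change was -0.69 ± 0.27, and the difference was -1.75 ± 0.40, with -1.86 ± 0.40 from a second probe. Without WT day 7 replicate 3 the difference was -2.00 with an adjusted p of 0.0405, and over 33 settings it ran from -2.00 to -1.63.

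Ugt genes, which conjugate glucuronic acid to bile acids, steroids and drugs, had 6 negative members of 11 (beside 5.17% of all genes) and a median of -1.49. In Ugt2b5, 3 arrays stood above the rest. Near-identical Ugt2b copies cannot be told apart with certainty. Ugt2b5 was -0.86, -0.30 and -0.47 in WT at day 0, 2.22 in replicate 1 of WT day 7, and -3.05, -4.47, -2.24 and -4.95 in the others. In Card9-/- it was 2.59, 2.43 and 0.26 and then -3.27, -5.13, -5.94 and -4.06. The 3 high arrays are those with high proximal Hox genes. The Ugt2b5 difference of -4.40 ± 1.87 was -2.90 without replicates 1 and 2 of Card9-/- day 0. It was -1.73 when replicate 1 of WT day 7 was also left out. Fatty acid oxidation and PPAR genes had 11 negative members of 24 and a median of -0.55, and Ppara, the receptor that induces them, differed by -1.82 ± 0.66 (-0.85 with the proximal Hox mean as a covariate). Without replicates 1 and 2 of Card9-/- day 0 the xenobiotic, Ugt and fatty acid oxidation medians were -0.43, -1.12 and -0.38. Fewer members of each list reached the unadjusted threshold there, as did fewer of all genes tested. With the proximal Hox mean as a covariate the medians were -0.20, -0.81 and -0.27. Hoxb8 (-5.13 ± 2.02), S100g, Nts, Prap1 and Slc10a2, which are among the 8 largest negative values by size that the rule for named genes takes, were likewise high on those 3 arrays, and Hoxb8 was -1.52 without the 2 Card9-/- arrays.

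Oxidative phosphorylation genes differed little but in a single direction. All 30 were negative, with a median of -0.32, against -0.10 for all genes, and 3 reached the unadjusted threshold. Of all 23403 genes tested 9237 were positive, so a negative sign was common. The 11 Ugt genes and 12 smooth muscle genes likewise had no positive member. Ndufa4, a subunit of cytochrome oxidase, was 4.63, 4.84 and 4.71 and then 4.69, 4.55, 4.45, 4.74 and 4.29 in WT, and 5.21, 5.08 and 5.08 and then 4.26, 4.45, 4.00 and 4.16 in Card9-/-. Its fall in Card9-/- was 0.91 ± 0.14 and its difference was -0.72 ± 0.19. The list's median was -0.33 without replicates 1 and 2 of Card9-/- day 0, -0.33 with slide as a block and -0.28 to -0.40 when 1 array at a time was left out. Quantile normalization gave -0.21. Without replicate 3 of WT day 7, 21 of the 30 were negative at the unadjusted threshold, as were 2266 of all 23403 genes.

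Other lists were not all small in value. Matrix protease genes had a median of 1.91 (2 of 13 positive and 1 negative at the unadjusted threshold). Endothelium genes had a median of 1.19 (5 of 17 positive, none negative). Mast cell, eosinophil and type 2, and extracellular matrix genes had medians of 1.08, 1.02 and 0.99, and smooth muscle genes -0.83. Without replicates 1 and 2 of Card9-/- day 0 the matrix protease, endothelium and smooth muscle medians were 1.50, 0.95 and -0.44. In the same setting the mast cell, eosinophil and type 2, and extracellular matrix medians were 0.28, 1.63 and 1.21. Goblet cell, tuft cell, MHC class I, mitosis and NF-kB feedback genes had medians between -0.15 and -0.03, and at most 2 members of each reached the unadjusted threshold in either direction. Mitosis and replication genes were low in replicate 3 of Card9-/- day 7, at -1.94 against -0.62 to 0.47 in the other 3. Their median moved from -0.08 to 0.41 without replicates 2 and 3 of that group, with 9 of 26 positive at the unadjusted threshold. In that setting 637 of all 23403 genes were positive at it. Pancreatic acinar genes had a median of 6.14 that was -0.53 without those 2 arrays. Pnliprp2, a pancreatic lipase with a difference of 6.53 ± 2.39, read 5.17 and 4.96 on those arrays and -2.96 and -1.44 on the other Card9-/- day 7 arrays.

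**Figure D4:**
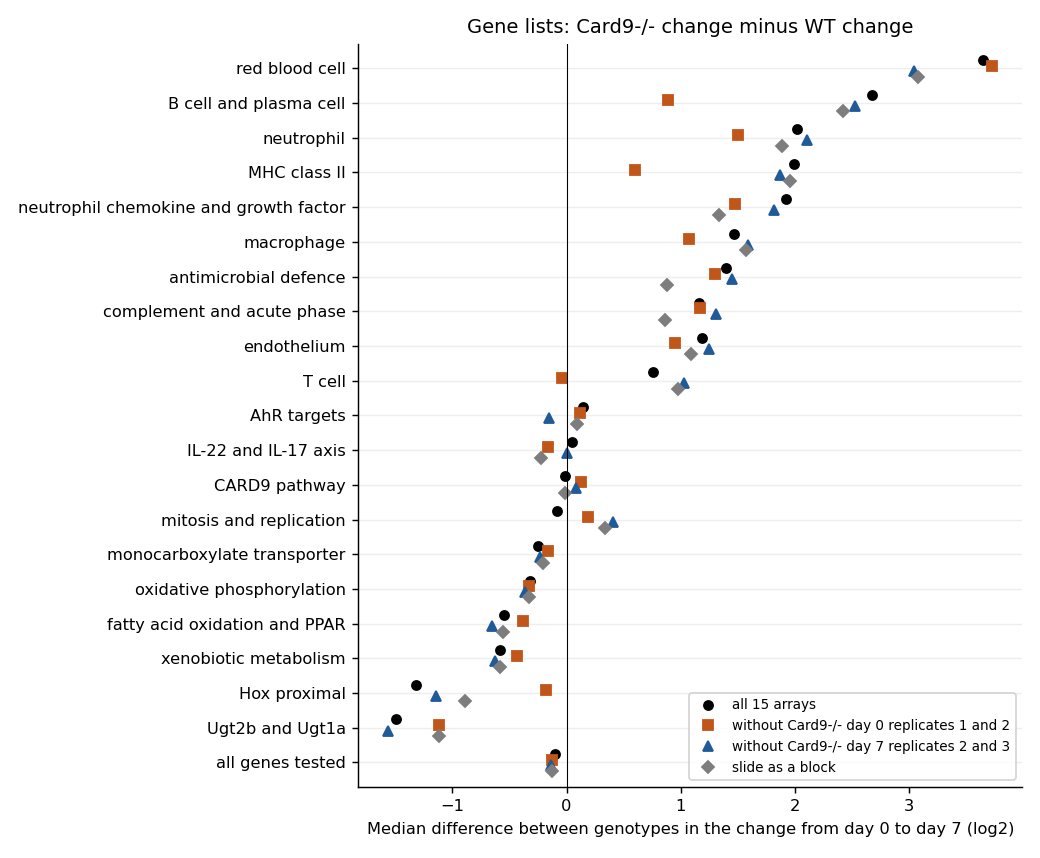
Median difference in change (log2, x axis) of 20 gene lists and of all genes tested (y axis), with all 15 arrays and with 3 other settings. Red blood cell genes stay between 3.04 and 3.73, while MHC class II, B cell and proximal Hox genes lie nearer 0 without replicates 1 and 2 of Card9-/- day 0 (0.60, 0.89 and -0.18).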

How the data were processed

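RNA of 15 colons (100 ng each, RIN above 7, per the labels) was hybridised to 1-colour Agilent arrays spread over 4 slides. The deposited files give spot intensity from Agilent Feature Extraction 10.7.3.1, per the file headers. Its processed intensity has background subtracted and dim spots replaced, and the 75th percentile of it ran from 204.6 to 658.4 over the 15 arrays, with 47.4 to 60.6 percent of probes well above background. The deposited series value table, with 33418 probes on a log2 scale as its values show, served as an alternative, its normalization being unstated.

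The values analysed are log2 of the deposited processed intensity minus the array's 75th percentile over non-control spots. Outlier spots were left out, which left 146 of the genes with a missing value, and spots of a probe were averaged. Probes well above background on 3 or more of the 15 arrays were kept (32813), and the brightest probe on average stood for a gene name. A model of the 4 group means was run in limma 3.58.1 (lmFit, eBayes; R 4.3.3) with 11 residual degrees of freedom, and a gene was called at a Benjamini-Hochberg adjusted p under 0.05 over all genes. Standard errors (SE) are those of the fit. A fold against a group with no array above background is a bound, taken against the lowest signal well above background on each array or the dim probe's signal, whichever was higher. The fit was tested on simulated data. Array positions are mm9, per the file headers, and 27656 probes were named by accession and 3722 by symbol or synonym through a RefSeq gene table of GRCm38.p6, while 24303 kept the file's name.

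Gene lists (47, with 760 of 834 genes tested) are described by counts and medians. Members and lists were chosen with earlier results of these data known. The genes named were Card9, those called with 15 or 25 arrays, the 12 with the smallest p and the 8 largest at an unadjusted p under 0.05 in each direction (both among genes with a plain symbol that all arrays of 1 or more groups detected above background), 4 members of each described list, and any member of the lists on CARD9, IL-22 and IL-17, AhR, tryptophan, monocarboxylate transport and antimicrobial defence. List members named beyond this were chosen after their values were seen. Alternatives changed the background correction, normalization, filter, probe choice, moderation, array weights, blocks, covariate or arrays. Replicate numbers in the labels were not taken to pair the arrays in the main fit. Of 19 same-numbered pairs in different groups, 4 had deviations correlated over 0.1 (range -0.21 to 0.30). Of 64 differently numbered pairs, 22 did (range -0.42 to 0.46). These values cannot exclude a pairing, and a replicate block was run as an alternative. The correlation ran from 0.932 to 0.9892 between arrays of a group and from 0.9212 to 0.9892 over all pairs of the 15, so no 2 of them held identical values.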

Additional observations from a re-analysis of the deposited data

Results flagged for a closer look

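The values here stood far from the rest of their day 7 group, by Dixon's ratio of the gap to the range, over 40 genes and 47 list means in 2 groups, which gave 14 such values. Chance alone gives about 1 in 20 such groups, and genes of a list are not independent. Replicate 1 of WT day 7 was high for Hoxb8 (1.99, others -4.29 to -2.93), Ugt2b38 (2.92, others -3.14 to -1.44), Nts (2.93, others -2.65 to -1.77), Slc10a2 (4.28, others -0.88 to 0.60) and S100g (7.43, others 0.05 to 1.64), and for the means of the Ugt list (1.48, others -1.96 to -0.98) and of bile acid and retinoid handling genes (1.25, others -0.21 to 0.11). The same array was low for Faim3 (-6.09, others -1.71 to -0.75), a B and T cell surface protein, and for the means of MHC class I and immunoproteasome genes (0.16, others 1.10 to 1.36) and mast cell genes (0.66, others 1.56 to 1.86).

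Replicate 3 of WT day 7 was high for Slc16a6 (1.16, others 0.84 to 0.92) and low for the mean of oxidative phosphorylation genes (-0.43, others -0.05 to 0.04). In Card9-/- at day 7, Atoh1 was high in replicate 3 (2.95, others 2.57 to 2.59) and Gys2 in replicate 4 (-4.69, others -5.75 to -5.66), and the latter was not well above background there. What set these arrays apart was not tested.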

How the results depend on the processing

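With 15 arrays limma called 0 genes for the difference in change, with 2032 at an unadjusted p under 0.05. It called 1 with all 25 arrays, 84 with array weights, 3 without replicates 1 and 2 of Card9-/- day 0, and 3 when replicate 1 of WT day 7 was also left out, the last an alternative chosen after seeing the data. With 1 array left out it called 0 to 2, the 2 being Sult1a1 and Lair1 without replicate 3 of WT day 7. Genes at the unadjusted threshold numbered 4801 with array weights, 1278 with slide as a fixed block, 824 without those 2 Card9-/- arrays, 861 without these and replicates 2 and 3 of Card9-/- day 7 and 882 in the other such alternative, both chosen after seeing the data. With 1 array left out they ran from 1245 (Card9-/- day 0 replicate 1) to 3531 (WT day 7 replicate 3), and were 1334 without WT day 0 replicate 2 and 1323 without Card9-/- day 0 replicate 2. Of the 2032 genes, 436 (21.5%) kept their sign and side of that threshold without the 2 Card9-/- day 0 arrays, 893 (43.9%) with the slide block and 1587 (78.1%) with the replicate block, which called 0 genes and gave 2206 at the unadjusted threshold. The replicate block changed no call of a gene's difference in change. Atp12a turned from 4.80 to -0.80 and Tnfrsf13c from 4.44 to -0.04 without Card9-/- day 0 replicates 1 and 2 and day 7 replicates 2 and 3, and these were the only sign changes among 1354 values of the 40 ranked genes under alternatives.

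For the responses, 4406 genes were called on average over genotypes, 7089 with array weights, 1283 without the 2 Card9-/- day 0 arrays, 565 without these and Card9-/- day 7 replicates 2 and 3, 1798 without these and WT day 7 replicate 1, and 3007 to 4846 with 1 array left out. In Card9-/- the 3500 calls became 78, 10 and 213 in those 3 settings, 1419 without replicates 2 and 3 of day 7, 2215 with no filter on dim probes, 6518 with array weights, 1050 with the slide block, 1860 with the Hox covariate and 1487 to 4082 with 1 array left out (1487 and 1536 without day 0 replicates 1 and 2). In WT the 467 calls became 195 with no filter, 1109 with 25 arrays, 2324 with array weights, 279 with the slide block, 71 with the replicate block, 859 with the Hox covariate, 232 without the 2 Card9-/- day 0 arrays and 83 without all 4 Card9-/- arrays, since their spread enters the shared estimate. With 1 array left out they ran from 45 to 935: 45, 64 and 104 without WT day 0 replicates 1, 2 and 3, 307 and 278 without Card9-/- day 0 replicates 1 and 2, and 935 and 201 without WT day 7 replicates 1 and 4. Between genotypes at day 0, the 1 call became 0 in the deposited value table, 1509 with array weights, 7, 2 and 6 in the 3 settings without Card9-/- day 0 replicates 1 and 2, and 1 to 2 with 1 array left out (2 without Card9-/- day 0 replicate 3). At day 7, the 1 call became 0 in the deposited value table, 140 with 25 arrays, 3 with trend and robust moderation, 0 without all 4 Card9-/- arrays, 2 with dim values raised (an alternative chosen after seeing the data), and 1 to 771 with 1 array left out: 771 without WT day 7 replicate 3, and 5 and 3 without Card9-/- day 7 replicates 1 and 4. With 1 array left out, members at the unadjusted threshold ran from 7 to 8 for red blood cell genes, 6 to 16 for neutrophil, 4 to 17 for macrophage, 1 to 12 for complement, 6 to 12 for antimicrobial, 3 to 9 for MHC class II, 1 to 11 for B cell and 1 to 6 for CARD9 pathway genes with positive differences, and 3 to 16 for xenobiotic, 2 to 9 for Ugt, 3 to 12 for fatty acid oxidation and 1 to 21 for oxidative phosphorylation genes with negative ones. The causes were not tested. Leaving out an array did not always widen errors: without WT day 7 replicate 3 the SE of Sult1a1 was 0.24 against 0.40. Precision is limited by 3 to 5 arrays a group and, for probes near background, by signal.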
